A study of Mus musculus with 14 samples.

Results

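The genes described here encode the MHC class II antigen presentation pathway: the class II chains H2-Aa, H2-Ab1 and H2-Eb1, the invariant chain Cd74, the transactivator Ciita, the peptide loading factors H2-DMa, H2-DMb1 and H2-DMb2, and their modulators H2-Oa and H2-Ob. They were chosen by name for their place in this pathway, with earlier results of these data known. They make up 10 of the 24833 genes in the count table. All 10 passed the filter on low counts and are among the 15466 genes tested. RNA came from bone marrow cells of C57BL/6 mice, sorted as the hematopoietic stem cell-enriched SLAM fraction (Lin-, Sca-1+ and Kit+ cells that lack Flk2 and CD48 and carry CD150). Donor mice were injected into the peritoneum with IL-1β, a cytokine of acute and chronic inflammation, at a daily dose of 0.5 µg each, or with the saline vehicle PBS. There are 3 libraries of IL-1β for 1 day against 3 of PBS for 1 day, and 4 of IL-1β for 20 days against 4 of PBS for 20 days. Each of the 14 libraries holds cells pooled from 3 to 5 mice. Nothing in the labels says more on how replicates were set up, so p-values measure the spread between these pools. The labels name no genetic change in any group and give neither age nor sex.

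Class II molecules present peptides from endosomes and lysosomes to CD4+ T cells. The alpha and beta chains assemble in the endoplasmic reticulum with the invariant chain, which blocks the groove and steers the complex to endosomes. There proteases trim the invariant chain to a fragment called CLIP, H2-DM exchanges CLIP for antigenic peptide, and H2-O binds H2-DM and restrains it. H2-Aa and H2-Ab1 form the I-A molecule. H2-Eb1 encodes the beta chain of I-E, whose alpha chain C57BL/6 mice do not make. Transcription of the class II chain genes depends on Ciita, a coactivator that binds no DNA itself. Ciita docks on a complex of RFX, CREB and NF-Y factors held at conserved promoter elements, the X box and, downstream of it, the Y box. Class II is best known from B cells, dendritic cells and activated macrophages, and it has also been described on mouse hematopoietic stem and progenitor cells.

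The promoter stretch around the Y box is shown for the 6 genes in which its letters were found, in chromosomal order, 5′ to 3′ on the gene's strand. Capitals mark TGATTGG, the Y box motif searched. They also mark AGNAAC, taken as X box letters, where it was found 28 to 42 bases upstream. In H2-Aa they mark, beside the Y box, the cyclic AMP response element. The sequences are from RefSeq, build GRCm38.p6.
H2-Oa, chr17:34092292-34092352, plus strand: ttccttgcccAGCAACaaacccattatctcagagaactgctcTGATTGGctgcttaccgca
H2-DMb2, chr17:34145115-34145175, plus strand: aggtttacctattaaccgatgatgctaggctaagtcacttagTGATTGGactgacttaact
H2-DMb1, chr17:34153086-34153146, plus strand: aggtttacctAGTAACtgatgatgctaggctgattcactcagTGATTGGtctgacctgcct
H2-Ob, chr17:34238804-34238864, plus strand: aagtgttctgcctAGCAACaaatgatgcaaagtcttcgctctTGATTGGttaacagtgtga
H2-Aa, chr17:34287855-34287915, minus strand: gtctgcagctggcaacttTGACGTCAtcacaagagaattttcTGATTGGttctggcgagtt
H2-Eb1, chr17:34305764-34305824, plus strand: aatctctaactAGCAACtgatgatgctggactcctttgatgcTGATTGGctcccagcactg

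The promoter table, with 250 bases before and 50 after each gene start, held 7 of the 10 genes. Both strands were searched. TGATTGG was found in 6 of these 7, against 7.82% of 32851 promoters, and began 45 to 92 bases before the start listed there. For some genes that start differs from the gene coordinates given below. The H2-DMb1 and H2-DMb2 stretches lie inside the coordinates of those genes. The pair of AGNAAC and, 28 to 42 bases on, ATTGG (the last letters of TGATTGG) was found in 4 of 7, against 0.788% of all promoters, while AGNAAC alone is in 48.1% and ATTGG alone in 37.4%. The cyclic AMP response element motif, TGACGTCA, was found in H2-Aa, against 1.79% of all promoters. H2-DMa, with 2 listed starts, had no TGATTGG in these windows. The H2-DMb1 and H2-DMb2 stretches match at 52 of 61 positions. Of the 6 genes with TGATTGG, H2-Aa and H2-Eb1 were called lower with IL-1β at both durations. H2-Ob was called higher at 20 days and lower at 1 day, and H2-Oa higher at 20 days only. H2-DMb1 and H2-DMb2 were called at neither. Whether these letters play a part in the responses was not tested.

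Libraries held 21654896 to 29441947 counts, so that 3 counts in 1 library are 0.102 to 0.139 CPM (a gene's counts relative to its library's total). Levels below are CPM scaled by TMM factors, and sums over several genes are CPM of the library totals. Over the 18 replicate pairs, chi-square per degree of freedom was between 10.7 and 74.4, so no pair agreed within sampling noise. The sort's own genes were measured in every group: Kit averaged 983 to 1276 CPM, Ly6a (encoding Sca-1) 116 to 142 and Slamf1 (encoding CD150) 56.9 to 100.4. IL-1β 20-day replicate 3 stood apart, with 2697 CPM summed over 13 neutrophil marker genes, against 97.8 to 193 CPM in the other 13 libraries. Of 9 tested neutrophil genes, Lcn2 and Prtn3 were called higher at 20 days and none at 1 day. The Prtn3 call ended without that library (adjusted p = 0.0842), without IL-1β 20-day replicate 1 or PBS 20-day replicate 2 or 3 (0.0572 to 0.0687) and with no naming set term (0.231), and the Lcn2 call without PBS 20-day replicate 3 or 4 (0.0551 and 0.0631) and with the 20-day libraries alone (0.0913). Of 7 genes of the sort gate, Slamf1 (log2 change 0.81), Cd48 (1.10) and Flt3 (1.02), which encodes Flk2, were called higher at 20 days and none at 1 day, and the part of these shifts in the results below was not tested. The library titles fall into 4 naming sets of unstated meaning, each holding both arms of 1 duration: at 1 day E060216 holds replicates 1 and 2 of each arm and 10k holds replicate 3, and at 20 days E061316 holds replicates 1 and 2 while replicates 3 and 4 carry no tag (the untagged set). Tests of IL-1β used edgeR's quasi-likelihood method, adjusting for naming set, with Benjamini-Hochberg correction over the genes tested, and a gene is called changed at an adjusted p under 0.05. Changes are given as log2 of IL-1β over PBS with an approximate SE.

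Chronic exposure was examined at 20 days. The class II chains and the invariant chain fell to between 0.352 and 0.590 times their PBS level, Ciita and the 3 H2-DM genes were not called, and both H2-O genes rose. Of the 10 genes, 4 were called lower and 2 higher, where 7.46% of all genes tested were called, 3.52% lower and 3.94% higher. The median change of the 10 was -0.35, against -0.000344 over all genes. In RNA from sorted cells in bulk, fewer cells expressing a gene and less of its RNA per cell cannot be told apart. Without IL-1β replicate 3, which carries the neutrophil transcripts, the counts were again 4 lower and 2 higher.

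**Figure D1:**
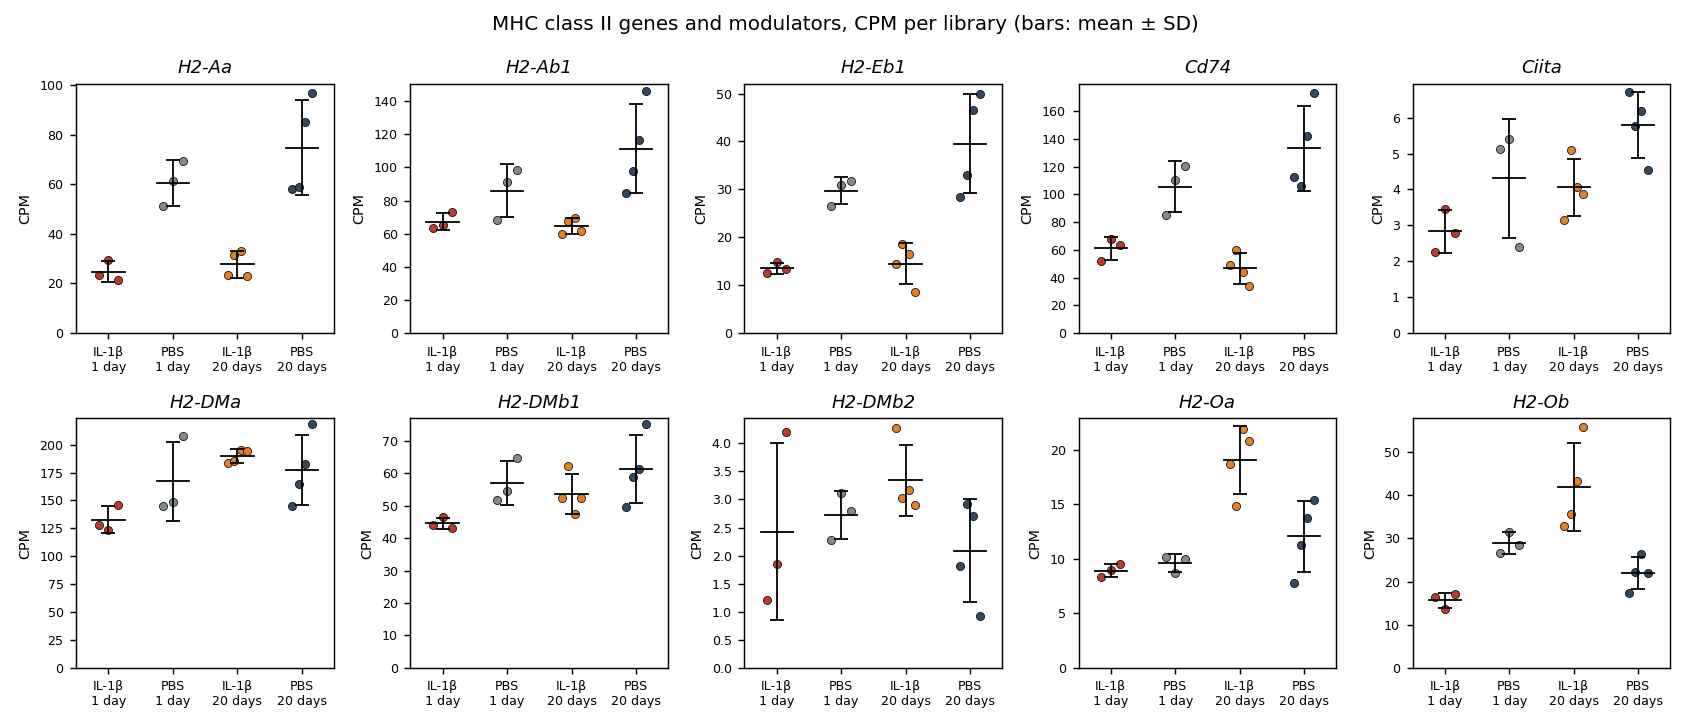
CPM of each of the 10 genes in every library (points), by group along the horizontal axis, with mean ± SD (bars) over 3 libraries per 1-day group and 4 per 20-day group. The IL-1β libraries lie below all PBS libraries of the same duration for H2-Aa, H2-Eb1 and Cd74, while H2-Ob with IL-1β lies above PBS at 20 days and below it at 1 day.

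Cd74 (chromosome 18, 60803848 to 60812652, plus strand, build GRCm38 here and below), the invariant chain gene, had 49.1, 60.0, 43.9 and 33.6 CPM with IL-1β for 20 days, against 112, 106, 142 and 173 CPM with PBS. Every IL-1β library lay below every PBS library. In CPM the PBS libraries spread more widely, but not relative to their mean (SD 23.1% of the mean with PBS and 23.6% with IL-1β). Cd74 fell by 1.51 ± 0.19 on the log2 scale (2.84-fold lower, edgeR adjusted p = 0.000283). Within the naming sets the difference was -1.003 in E061316 and -2.03 in the untagged set.

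H2-Aa (chromosome 17, 34282744 to 34287823, minus strand), the I-A alpha chain gene, had 23.2, 31.3, 33.2 and 22.9 CPM with IL-1β for 20 days, against 58.2, 59.0, 85.1 and 96.7 CPM with PBS. The groups did not overlap. H2-Aa fell by 1.40 ± 0.17 (2.64-fold lower, edgeR adjusted p = 0.000235), with -1.12 in E061316 and -1.72 in the untagged set. H2-Ab1 (chromosome 17, 34257689 to 34269419, plus strand), its beta chain partner, had 59.8, 67.8, 69.2 and 61.6 CPM with IL-1β, against 84.7, 97.7, 117 and 146 CPM with PBS. These groups did not overlap either, though the gap was narrower. H2-Ab1 fell by 0.76 ± 0.13 (1.70-fold lower, adjusted p = 0.00211), with -0.51 in E061316 and -1.0003 in the untagged set.

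H2-Eb1 (chromosome 17, 34305867 to 34316674, plus strand), the I-E beta chain gene, had 14.4, 18.5, 16.4 and 8.57 CPM with IL-1β for 20 days, against 28.5, 33.1, 46.6 and 50.01 CPM with PBS. Replicate 4 of the IL-1β group was lowest of all 14 libraries and the groups did not overlap. H2-Eb1 fell by 1.43 ± 0.22 (2.69-fold lower, edgeR adjusted p = 0.00134), with -0.91 in E061316 and -2.02 in the untagged set. Leaving out any 1 of the 14 libraries ended none of the 20-day calls of Cd74, H2-Aa, H2-Ab1 and H2-Eb1 (adjusted p up to 0.011).

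Ciita (chromosome 16, 10480059 to 10528418, plus strand), the transactivator gene, had 3.16, 5.11, 4.08 and 3.88 CPM with IL-1β for 20 days, against 6.71, 5.76, 6.19 and 4.55 CPM with PBS. The PBS values were mostly higher, but 1 IL-1β library lay above the lowest PBS library. The change of -0.51 ± 0.25 was not called (edgeR adjusted p = 0.276). Within naming sets it was -0.62 in E061316 and -0.41 in the untagged one, where the arms did not overlap in either. Only 88 to 183 reads per 20-day library were counted for Ciita. Its SE of 0.25 was above those of the chain genes, which ran from 0.13 for H2-Ab1 to 0.22 for H2-Eb1. The part of read depth in this was not tested. Ciita overlaps Dexi on the other strand, which the library chemistry cannot separate.

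H2-DMa (chromosome 17, 34119541 to 34139101, plus strand), the alpha chain of the CLIP exchange factor, had the highest level per transcript length of the 10 genes in all 4 groups. It had 183, 185, 195 and 195 CPM with IL-1β for 20 days, against 145, 165, 182 and 219 CPM with PBS. The groups overlapped, with the IL-1β libraries inside the PBS range, and the change was 0.10 ± 0.09 (adjusted p = 0.586). Within naming sets it was 0.25 in E061316, where the arms did not overlap, and -0.04 in the untagged set, where they did. H2-DMb1 (chromosome 17, 34153072 to 34160230, plus strand), a beta chain for H2-DMa, had 52.5, 62.2, 47.6 and 52.3 CPM with IL-1β, against 49.7, 58.9, 61.3 and 75.4 CPM with PBS, a change of -0.19 ± 0.13 (adjusted p = 0.459). Its sets also differed, with 0.08 in E061316, with overlap, and -0.45 in the untagged set, without overlap. H2-DMb2 (chromosome 17, 34143307 to 34151555, plus strand), the other beta chain, was near 3 CPM, with 4.27, 3.02, 3.17 and 2.90 CPM with IL-1β against 1.81, 2.92, 2.71 and 0.918 CPM with PBS. Its groups overlapped and its change of 0.68 ± 0.37 was not called (adjusted p = 0.333). For H2-DMb2 the sets had 0.63 in E061316 and 0.90 in the untagged set, without overlap in either. The beta chain genes share 13.7% of the 100-base windows of the H2-DMb1 transcript, so reads there may be split or dropped between them. Summed as 1 gene, H2-DMb1 and H2-DMb2 changed by -0.15 (adjusted p = 0.55), an alternative added after the data were seen. H2-DMa overlaps Brd2 on the other strand, and Brd2 was not called at either duration.

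H2-Ob (chromosome 17, 34238903 to 34254414, plus strand), the beta chain of the H2-DM inhibitor, had 33.0, 35.6, 43.4 and 55.7 CPM with IL-1β for 20 days, against 17.4, 22.2, 26.4 and 22.03 CPM with PBS. Every IL-1β library lay above every PBS library. H2-Ob rose by 0.91 ± 0.13 (1.88-fold, edgeR adjusted p = 0.000779), with 0.80 in E061316 and 1.02 in the untagged set. No library left out ended this call (adjusted p up to 0.00558). H2-Oa (chromosome 17, 34092340 to 34095234, plus strand), its alpha chain partner, had 18.7, 14.8, 21.9 and 20.8 CPM with IL-1β, against 7.82, 11.3, 13.8 and 15.4 CPM with PBS. The lowest IL-1β library lay below the highest PBS library. H2-Oa rose by 0.68 ± 0.15 (1.60-fold, adjusted p = 0.0133), with 0.82 in E061316 and 0.55 in the untagged set. H2-Oa overlaps the antisense gene BC051537, which had 367 counts over all libraries. The H2-Oa call ended without IL-1β replicate 1 (0.58, adjusted p = 0.0522) and in a fit with no naming set term (0.66, adjusted p = 0.0787).

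In the 20-day comparison 5 of the 10 genes had groups that did not overlap, 4 of them lower and 1 higher with IL-1β. Over all genes tested 10.4% did not overlap, 4.99% lower and 5.39% higher.

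The 1-day comparison addresses the acute response. H2-Aa, H2-Eb1 and H2-Ob fell to between 0.407 and 0.543 times their PBS level, and no gene of the 10 rose. The 3 called lower stand against 1.83% of all genes tested, none called higher against 2.52%, and 4.35% were called in all. All 10 estimates were negative, with a median of -0.44 against -0.0145 over all genes. H2-Aa had 23.3, 29.3 and 21.2 CPM with IL-1β for 1 day, against 51.1, 61.2 and 69.5 CPM with PBS. The groups lay far apart relative to their spread, and H2-Aa fell by 1.30 ± 0.20 (2.46-fold lower, edgeR adjusted p = 0.00173), with -1.71 in the 10k set and -1.09 in E060216.

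H2-Ob had 16.4, 13.7 and 17.0 CPM with IL-1β for 1 day, against 26.6, 31.6 and 28.4 CPM with PBS. The groups did not overlap. H2-Ob fell by 0.88 ± 0.15 (1.84-fold lower, edgeR adjusted p = 0.00452), with -0.74 in 10k and -0.95 in E060216. Leaving out any 1 library ended neither this call (adjusted p up to 0.0386) nor that of H2-Aa (up to 0.0186). H2-Eb1 had 12.46, 14.8 and 13.3 CPM with IL-1β, against 26.4, 31.0 and 31.8 CPM with PBS, again without overlap. H2-Eb1 fell by 1.14 ± 0.25 (2.20-fold lower, adjusted p = 0.02), with -1.25 in 10k and -1.07 in E060216. This call ended when any 1 of the 3 IL-1β 1-day libraries, or PBS 1-day replicate 2 or 3, was left out (adjusted p = 0.0581 to 0.11, changes of -1.22 to -1.07).

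Cd74 had 52.0, 67.9 and 63.7 CPM with IL-1β for 1 day, against 85.1, 110 and 121 CPM with PBS. The groups did not overlap, yet the change of -0.78 ± 0.21 was just outside the threshold (edgeR adjusted p = 0.0532). It was inside it with DESeq2 size factors (0.0479), with upper-quartile factors (0.0402), with DESeq2 (0.00487), with the 1-day libraries alone (0.00486) and without IL-1β 20-day replicate 2 or 4 or PBS 20-day replicate 4 (adjusted p = 0.0187 to 0.0321). H2-Ab1 had 63.4, 65.2 and 73.2 CPM with IL-1β, against 68.2, 91.2 and 98.5 CPM with PBS, with overlap in 1 PBS library and a change of -0.35 ± 0.14 (adjusted p = 0.206).

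Ciita had 2.25, 3.47 and 2.78 CPM with IL-1β for 1 day, against 5.14, 5.40 and 2.405 CPM with PBS. The PBS value of 2.405 CPM, from the 10k set, lay inside the IL-1β range. The change of -0.53 ± 0.30 was not called (edgeR adjusted p = 0.377), and was 0.20 in 10k and -0.90 in E060216.

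H2-DMa had 128, 124 and 146 CPM with IL-1β for 1 day, against 145, 149 and 208 CPM with PBS, a change of -0.32 ± 0.10 (edgeR adjusted p = 0.106). DESeq2 called it lower (adjusted p = 0.032), as did fits of the 1-day libraries alone (0.0444) and without PBS 20-day replicate 4 (0.0296). H2-DMb1 had 44.0, 46.6 and 43.3 CPM with IL-1β, against 51.9, 54.6 and 64.7 CPM with PBS. These groups did not overlap, but the change of -0.35 ± 0.15 was not called (adjusted p = 0.21). H2-DMb2 ran from 1.21 to 4.20 CPM with IL-1β and from 2.27 to 3.12 CPM with PBS, a change of -0.34 ± 0.44 (adjusted p = 0.754). H2-Oa had 8.32, 8.95 and 9.501 CPM with IL-1β, against 10.2, 8.67 and 9.96 CPM with PBS. Its groups overlapped and its change was -0.11 ± 0.18 (adjusted p = 0.816). In all, 5 of the 10 genes had 1-day groups that did not overlap, all of them lower with IL-1β, while 17.7% of all genes tested did not overlap, 8.91% lower and 8.75% higher.

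**Figure D2:**
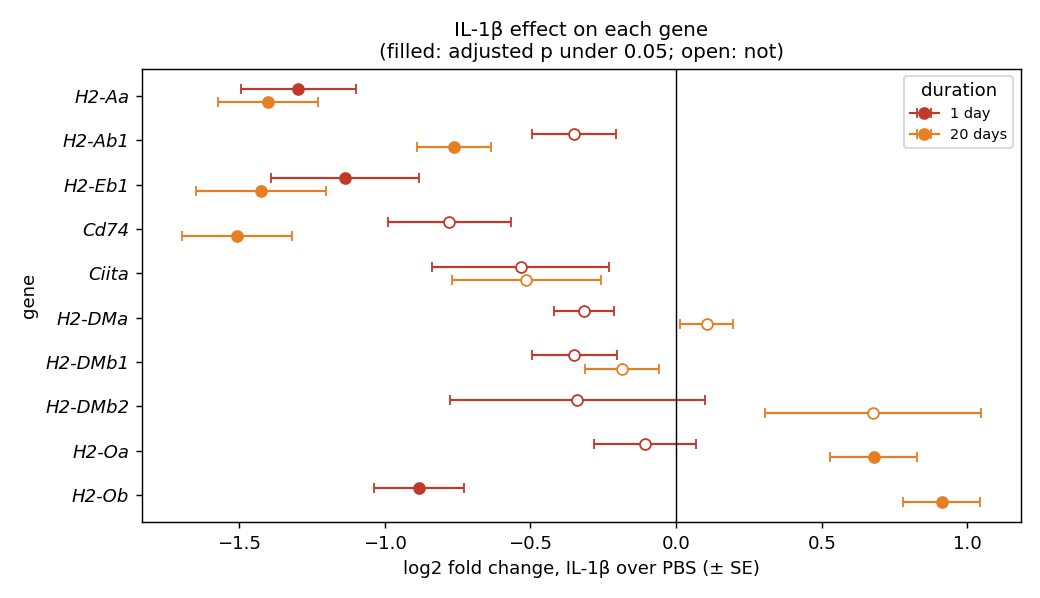
Log2 fold change of IL-1β over PBS (horizontal axis) ± SE for each gene at 1 day (red) and 20 days (orange), where filled points have an adjusted p under 0.05. H2-Ob lies at 0.91 at 20 days and at -0.88 at 1 day, whereas H2-Aa lies at -1.40 at 20 days and at -1.30 at 1 day.

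The 20-day effect was set against the 1-day effect in the same fit. H2-Ob was called, with a difference of 1.79 ± 0.20 on the log2 scale (edgeR adjusted p = 0.00173), where 2.14% of all genes tested were called, 1.15% higher and 0.989% lower. No library left out ended this call (adjusted p up to 0.012). The other 9 genes were not called. H2-Oa had a difference of 0.79 ± 0.23 (adjusted p = 0.0871) and H2-DMa one of 0.42 ± 0.14 (0.121), and DESeq2 called both (0.023 and 0.0341). Cd74 had -0.73 ± 0.28 (0.179), H2-Ab1 -0.41 ± 0.19 (0.268), H2-Eb1 -0.29 ± 0.33 (0.72) and H2-Aa -0.10 ± 0.26 (0.893). H2-DMb2 had 1.01 ± 0.57 (0.374), H2-DMb1 0.16 ± 0.19 (0.728) and Ciita 0.02 ± 0.39 (0.988). These estimates do not show that the chains responded alike at both durations, since their errors leave room for differences.

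PBS libraries of 20 days and of 1 day were also compared, in a fit of group means, because naming sets lie within durations and cannot be told apart from them. None of the 10 genes was called, nor was any of the 15466 genes tested by edgeR (0%, while 676 or 4.37% had an unadjusted p under 0.05 and DESeq2 called 9). Of the 10 estimates 8 were positive, from 0.09 for H2-DMa to 0.42 for Ciita. H2-Ob had 22.02 ± 3.69 CPM with PBS for 20 days and 28.9 ± 2.51 CPM with PBS for 1 day (SD, n = 4 and 3). Those groups did not overlap, as for 5.9% of all genes tested (2.64% lower, 3.26% higher), and the change was -0.39 ± 0.18 (edgeR adjusted p = 0.999). H2-Ab1 had 111 ± 26.7 CPM with PBS for 20 days and 86.0 ± 15.8 CPM with PBS for 1 day, with overlap.

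The order of levels can be compared between genes once CPM is divided by transcript length in kilobases. With IL-1β for 20 days H2-DMa was highest, at 114 CPM per kb, followed by H2-Ab1 at 53.3, H2-DMb1 at 38.2, Cd74 at 33.1 and H2-Aa at 24.5. With PBS for 20 days the order was H2-DMa at 107 CPM per kb, Cd74 at 94.4, H2-Ab1 at 91.9, H2-Aa at 66.3 and H2-DMb1 at 43.7, and each of these overlapped its neighbour. With IL-1β for 20 days H2-DMa and H2-Ab1 stood clear of the gene below them, whereas H2-DMb1, Cd74 and H2-Aa overlapped in turn.

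Below these came H2-Oa at 17.5, H2-Ob at 15.7 and H2-Eb1 at 8.67 CPM per kb with IL-1β for 20 days, where the H2-O genes overlapped each other and H2-Eb1 lay under both. With PBS for 20 days H2-Eb1 led at 23.7, with H2-Oa at 11.1 and H2-Ob at 8.25 CPM per kb. H2-DMb2 and Ciita were lowest in all 4 groups, Ciita between 0.471 and 0.966 CPM per kb. The lengths are those of the longest principal transcript. H2-DMa has a second one of 1108 bases beside that of 1658, with which its level per kb would be higher still.

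At 1 day the same scale put H2-DMa first, at 80.1 CPM per kb with IL-1β and 101 with PBS, and clear of the next gene in both groups. With IL-1β for 1 day H2-Ab1 (55.5), Cd74 (43.4), H2-DMb1 (31.8) and H2-Aa (21.8) followed, none overlapping the gene above. With PBS for 1 day Cd74 (74.7), H2-Ab1 (70.9), H2-Aa (53.7) and H2-DMb1 (40.7) overlapped in turn. H2-Aa thus stood above H2-DMb1 on average in both PBS groups and below it in both IL-1β groups.

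Ratios between partner genes in the same library do not depend on how libraries are scaled to each other. H2-Aa over H2-Ab1, per transcript length, was 0.397 ± 0.0859 with IL-1β for 1 day and 0.761 ± 0.0422 with PBS for 1 day (SD, n = 3 each). After 20 days it was 0.457 ± 0.0577 with IL-1β and 0.720 ± 0.0562 with PBS (SD, n = 4 each). All 7 IL-1β libraries were at or below 0.516 and all 7 PBS libraries at or above 0.648. The groups did not overlap at either duration.

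Cd74 over H2-Ab1 was 0.783 ± 0.100 with IL-1β for 1 day and 1.06 ± 0.0163 with PBS. After 20 days it was 0.620 ± 0.136 with IL-1β and 1.03 ± 0.0860 with PBS, and neither duration showed overlap. H2-Oa over H2-DMa was 0.122 to 0.171 with IL-1β for 20 days, against 0.0822 to 0.115 with PBS. H2-Ob over H2-DMb1 was 0.301 to 0.560 with IL-1β for 20 days, against 0.154 to 0.227 with PBS. Neither ratio overlapped between the 20-day groups, and both were higher with IL-1β. At 1 day H2-Ob over H2-DMb1 was 0.154 to 0.207 with IL-1β, against 0.231 to 0.304 with PBS. These ratios were not tested.

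**Figure D3:**
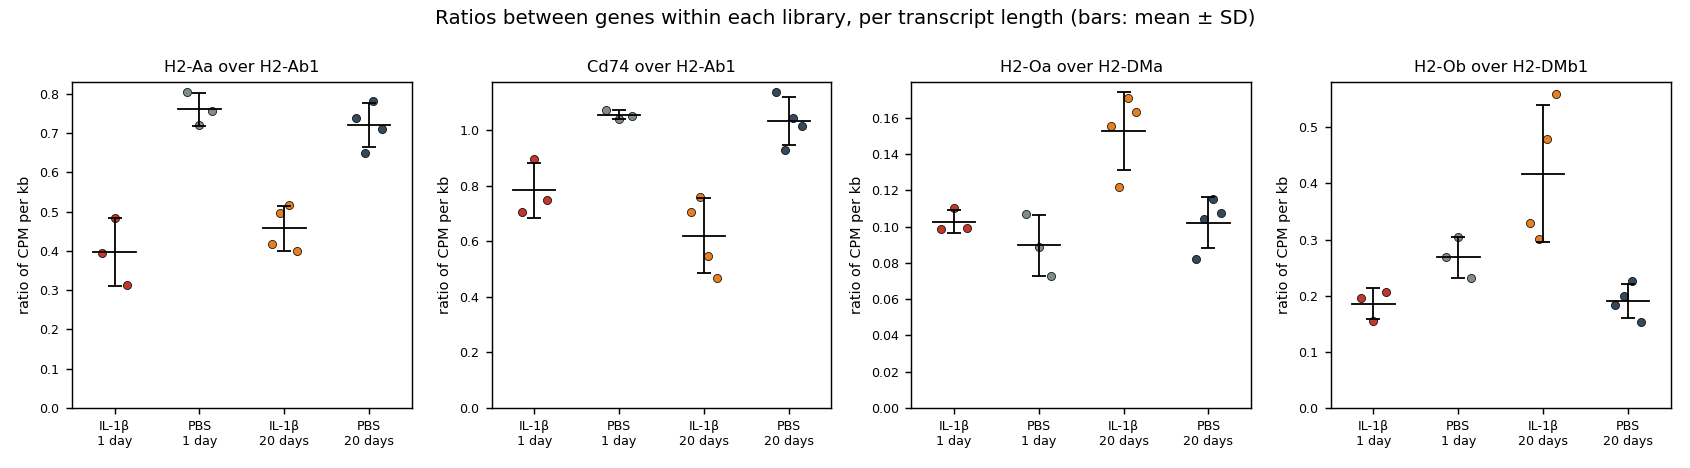
Ratios of CPM per kb between 2 genes of the same library (points), by group, with mean ± SD (bars). H2-Aa over H2-Ab1 is at most 0.516 in IL-1β libraries and at least 0.648 in PBS libraries, and H2-Ob over H2-DMb1 is highest with IL-1β for 20 days.

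Replicates also varied among themselves. After subtracting each group's mean, log2 CPM of H2-Aa correlated across the 14 libraries with that of H2-Eb1 (Pearson r = 0.816), H2-Ab1 (0.772) and Cd74 (0.751), and Cd74 with H2-Eb1 (0.880). H2-Oa and H2-Ob had r = 0.557, while H2-Ob had 0.0750 with H2-Aa. H2-Ab1 had 0.849 with H2-DMa. Ciita had -0.127 with H2-Aa, -0.137 with Cd74, -0.400 with H2-Ab1, -0.0438 with H2-Eb1 and -0.728 with H2-DMa. The points share libraries and scaling. Naming sets were not subtracted, so differences between the sets within a group also enter these r values.

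On chromosome 17 the genes other than Cd74 and Ciita lie among genes of other functions. From Col11a2 to Notch4 the chromosomal order is H2-Oa, Brd2, H2-DMa, H2-DMb2, H2-DMb1, Psmb9, Tap1, Psmb8, Tap2, H2-Ob, H2-Ab1, H2-Aa and H2-Eb1, over the genes listed and tested. H2-Ob, higher at 20 days, is the tested neighbour of H2-Ab1, lower at 20 days. Between H2-DMb1 and H2-Ob, Psmb9 and Psmb8 (inducible proteasome subunits) had -0.07 ± 0.11 and -0.20 ± 0.12 at 20 days, and Tap1 and Tap2 (the class I peptide transporter) 0.04 ± 0.06 and 0.10 ± 0.08, none called. Of 36 tested neighbours of the wider region, none was called at 20 days. At 1 day 3 were called lower, Tap2 (-0.35 ± 0.09, adjusted p = 0.0419), H2-K2 (-0.80 ± 0.20, 0.035) and Phf1 (-0.90 ± 0.24, 0.0494). The calls of Tap2 and Phf1 ended in 10 of 14 leave-out fits each and that of H2-K2 in 4. H2-Eb2, a close relative of H2-Eb1, had at most 0.431 CPM in any library and was not tested.

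**Figure D4:**
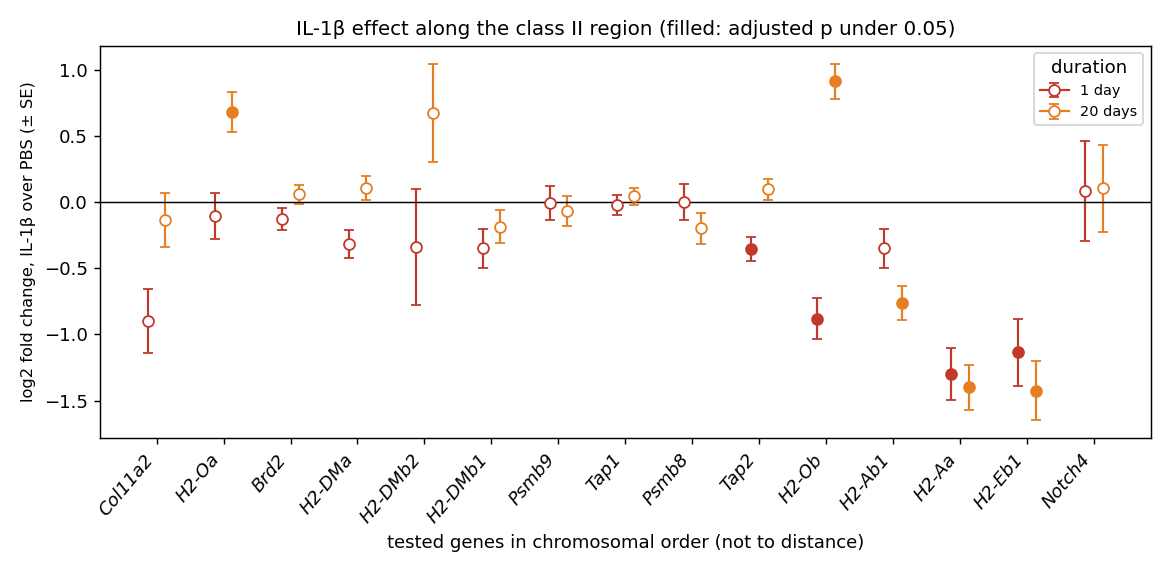
Log2 fold change of IL-1β over PBS (vertical axis) ± SE for the tested genes from Col11a2 to Notch4 in chromosomal order (horizontal axis, not to distance), at 1 day (red) and 20 days (orange), filled where the adjusted p is under 0.05. The lowest points are those of H2-Aa and H2-Eb1, while H2-Ob and H2-Oa are the filled points above 0, both at 20 days.

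None of 8 genes encoding factors of the class II promoter complex was called at either duration, including Rfx5 (0.05 ± 0.17 at 20 days), Rfxap (-0.03 ± 0.08) and Rfxank (0.30 ± 0.13, adjusted p = 0.21), the subunits of RFX. Rfx5 averaged 35.2 ± 2.94 CPM with IL-1β for 20 days and 34.1 ± 8.94 CPM with PBS (SD, n = 4 each).

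Of 15 genes that act upstream of Ciita, among them those of the interferon gamma receptor, 1 rose and none fell at 20 days. Ifngr2, a chain of the receptor, rose by 0.44 ± 0.12 at 20 days (edgeR adjusted p = 0.043), but 10 of the 14 fits that leave out a library lost it (largest adjusted p 0.126). Ifngr1, Irf1 and Irf8, the receptor's other chain and interferon regulatory factors, were not called, with 0.17, 0.03 and -0.09 at 20 days and 0.09, -0.28 and -0.06 at 1 day.

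Among the enzymes that prepare the invariant chain and antigens, 3 were higher at 20 days. Of the 14 antigen processing genes, 3 rose and none fell at 20 days, with a list median of 0.08 against -0.000344 over all genes. Ctss, cathepsin S, which trims the invariant chain, had 23.2, 21.98, 14.7 and 24.6 CPM with IL-1β for 20 days, against 8.92, 7.56, 14.3 and 9.97 CPM with PBS. It rose by 1.07 ± 0.22 (edgeR adjusted p = 0.00863), and its groups did not overlap. Ctsh, cathepsin H, rose by 0.69 ± 0.14 (0.00813) and Lgmn, an asparaginyl endopeptidase, by 2.63 ± 0.51 (0.00649) against PBS levels of 0.101 to 1.81 CPM. No library left out ended these 3 calls. At 1 day Ctsl, cathepsin L, fell by 0.50 ± 0.12 (adjusted p = 0.0285), lost in 5 of 14 such fits, while Ctss had 0.86 ± 0.25 (0.0708). None of 5 tested genes of class II turnover was called at either duration.

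Among 7 tested genes of costimulation, 4 rose and 1 fell at 20 days. Cd86, a ligand of CD28 on T cells, fell by 0.78 ± 0.18 (edgeR adjusted p = 0.0174), with 8.37, 5.07, 5.21 and 6.42 CPM with IL-1β for 20 days, against 10.95, 9.36, 10.7 and 11.9 CPM with PBS. The groups did not overlap, and the call ended without IL-1β replicate 3 (0.0641) and in the fit of the 20-day libraries alone. At 1 day Cd86 fell by 0.78 ± 0.21 (adjusted p = 0.0458), lost in 10 of 14 such fits. Pdcd1lg2, a ligand of the inhibitory receptor PD-1, rose by 1.123 ± 0.20 at 20 days (0.00318), a call kept in every leave-out fit. Cd48, whose product the sort selects against, rose by 1.10 ± 0.26 (0.0197). That call did not hold when IL-1β 20-day replicate 1 (adjusted p = 0.057) or 3 (0.111) was left out, nor without PBS 20-day replicate 1 (0.0633) or 2 (0.0543) or with the 20-day libraries alone (0.056). Icosl (0.82 ± 0.22, 0.0371) and Tnfsf4 (0.71 ± 0.20, 0.0445) rose with calls lost in 10 of 14 such fits each.

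Other cells of the marrow express class II strongly, so their markers were measured in the same libraries. Of 15 tested macrophage markers at 20 days, 2 rose (Cd68 and Spic) and 3 fell (C1qa by 1.97, C1qb by 1.63 and Cd5l by 3.26), and at 1 day Spic fell by 1.13. At both durations 11 of the 15 had negative estimates, with a list median of -0.29 at 20 days and -0.88 at 1 day. The C1qa, C1qb and Cd5l calls ended in 10, 11 and 4 of 14 leave-out fits. The 16 macrophage genes summed to 82.1 to 93.7 CPM with IL-1β for 20 days and 68.4 to 108 CPM with PBS, and to 73.4 to 86.8 CPM with IL-1β for 1 day and 85.2 to 103 CPM with PBS. C1qa, C1qb and C1qc, which encode complement C1q, a product of tissue macrophages, summed to 1.82 to 3.57 CPM with IL-1β for 20 days, against 4.92 to 16.4 CPM with PBS, and to 3.91 to 11.01 CPM with IL-1β for 1 day, against 11.8 to 16.9 CPM with PBS. They moved with the class II chains in direction, and their part in the result was not tested. The C1q sum is given here beside the sum of H2-Aa, H2-Ab1, H2-Eb1 and Cd74 for each library, and the relation between these sums was not tested. In PBS 1-day replicates 1 to 3, C1q summed to 11.8, 12.9 and 16.9 CPM and the 4 genes to 237, 297 and 308 CPM. In PBS 20-day replicates 1 to 4, C1q summed to 16.4, 5.01, 4.92 and 6.14 CPM and the 4 genes to 286, 294, 391.8 and 477 CPM. In the IL-1β libraries C1q summed to 4.70, 3.91 and 11.01 CPM at 1 day, beside 144, 171 and 169 CPM of the 4 genes, and to 2.15, 3.57, 1.82 and 3.22 CPM at 20 days, beside 149, 175, 167 and 132 CPM. Without PBS 20-day replicate 1 (C1q at 16.4 CPM), the 20-day estimates were -1.62 for Cd74, -1.48 for H2-Aa, -1.60 for H2-Eb1 and -0.87 for H2-Ab1.

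B cell markers other than Cd79b were low. The 14 listed genes other than Cd79b summed to 5.06 to 7.57 CPM with IL-1β for 20 days and 4.48 to 6.45 CPM with PBS, and to 3.25 to 7.72 CPM with IL-1β for 1 day and 5.27 to 12.1 CPM with PBS. All 15 B cell genes summed to 56.9 to 67.0 CPM with IL-1β for 20 days and 47.3 to 56.8 CPM with PBS, of which Cd79b alone averaged 53.7 and 46.4 CPM. At 1 day they summed to 40.9 to 56.5 CPM with IL-1β and 50.9 to 58.0 CPM with PBS. None of the 7 tested B cell genes was called at either duration. At 20 days 5 of the 7 had positive estimates (list median 0.56). At 1 day all 7 had negative ones (list median -0.54), the direction of the class II genes, and their part in the 1-day result was not tested.

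Dendritic cell markers other than Flt3 were low too. Itgax, Siglech and Cd209a summed to 0 to 0.801 CPM with IL-1β for 20 days and 0 to 0.318 CPM with PBS, and to 0 in all 3 IL-1β libraries of 1 day and 0 to 0.139 CPM with PBS. The 13 listed genes other than Flt3 summed to 7.78 to 15.7 CPM with IL-1β for 20 days and 5.15 to 11.5 CPM with PBS, and to 6.22 to 11.98 CPM with IL-1β for 1 day and 10.8 to 14.5 CPM with PBS. Zbtb46, a transcription factor of conventional dendritic cells, had 2.77, 2.93 and 3.69 CPM with IL-1β for 1 day, against 5.57, 6.10 and 6.88 CPM with PBS, without overlap (-0.99 ± 0.49, edgeR adjusted p = 0.302). At 20 days it averaged 1.33 ± 1.08 CPM with IL-1β and 3.01 ± 1.22 CPM with PBS, with overlap (-1.29 ± 0.47, adjusted p = 0.121). Clec9a, a receptor of a dendritic cell subset, had 0.161 to 0.536 CPM with IL-1β for 1 day, against 0.914 to 2.61 CPM with PBS (-2.10 ± 0.62, adjusted p = 0.0717), and 2.29 ± 0.535 CPM with IL-1β for 20 days, against 2.10 ± 1.17 CPM with PBS (0.12 ± 0.48, adjusted p = 0.937). At 1 day the groups of both genes did not overlap, in the direction of the class II chains, where 8.91% of all genes tested were lower without overlap. Both were named after their values were seen, and their part in the result was not tested. Of the 8 tested dendritic cell genes, 5 had negative and 3 positive estimates at 1 day (list median -0.13). At 20 days 5 were positive and 3 negative (list median 0.46). Flt3, which progenitors also express, was higher at 20 days and was the one of the 8 tested genes that was called. The 7 T and NK cell genes summed to 91.2 to 109 CPM with IL-1β for 20 days and 44.9 to 61.6 CPM with PBS, with Nkg7 higher by 1.07 (chosen after its values were seen). Most of these sums was Nkg7, which alone averaged 85.6 CPM with IL-1β for 20 days and 40.8 CPM with PBS. Klrb1c averaged 11.6 and 9.01 CPM, and Cd4 went the other way, with 1.07 and 2.32 CPM. Cd3d, Cd3g, Cd2 and Trac averaged at most 0.148 CPM in either 20-day group. At 1 day the 7 genes summed to 56.6 to 76.6 CPM with IL-1β and 44.1 to 72.0 CPM with PBS. The 10 pathway genes themselves summed to 448 to 490 CPM with IL-1β for 20 days and 517 to 823 CPM with PBS. Their 1-day sums were 334 to 390 CPM with IL-1β and 485 to 611 CPM with PBS.

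Among the genes tested outside the pathway list, those most like the mean log2 CPM of H2-Aa, H2-Ab1, H2-Eb1 and Cd74 over the 14 libraries were Ccnd2 (Pearson r = 0.922), Myl10 (0.915), Gimap5 (0.915), Tnfsf13 (0.914) and Serpinf1 (0.913). These r values include the difference between IL-1β and PBS libraries. Within groups, r of the deviations, again with naming sets not subtracted, was 0.610, 0.511, 0.628, 0.530 and 0.720 in the same order. Ccnd2, cyclin D2, averaged 249 CPM with IL-1β for 20 days and 536 CPM with PBS, and 319 CPM with IL-1β for 1 day and 494 CPM with PBS. Myl10, a myosin light chain gene, averaged 26.5 CPM with IL-1β for 20 days and 161 CPM with PBS, and 32.5 CPM with IL-1β for 1 day and 141 CPM with PBS. Gimap5, a GTPase gene of lymphocyte survival, averaged 64.0 CPM with IL-1β for 20 days and 107 CPM with PBS.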

How the data were processed

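Values were read from the authors' count table, which gives unnormalized whole-number counts by gene symbol for each library. Per the labels' protocols, SMARTer low-input cDNA was made into Nextera XT libraries and read from a single end, chemistry that does not mark strand. Tools listed in the submitters' processing notes, with no roles, include STAR 2.4.2a, Trimmomatic 0.32, DESeq2 1.12.3 and HTSeq 0.6.1, beside Cuffdiff and Cufflinks 2.0.2, and the build is GRCm38.p4. For the annotation and strand setting, nothing is stated there. Amplified reads carry no molecular identifiers, so floors cover counting error only.

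From these counts, edgeR 4.0.16 (R 4.3.3) was run with TMM factors, filterByExpr (minimum count 10), a naming set term and an IL-1β effect per duration over all 14 libraries, robust quasi-likelihood F-test, two-sided, with 8 residual degrees of freedom and a biological coefficient of variation of 0.198. SEs were taken as |log2 fold change| over the root of F. PBS durations were compared by group means (10 residual degrees of freedom). The fit was tested on simulated data. CPM per kb used the longest principal transcript of GENCODE vM21. Correlations used log2 CPM with a prior count of 2. Alternatives were DESeq2 1.42.0, other size factors, no filter, no naming set term, single durations, a replicate block and each library left out. Members and lists were chosen with earlier results of these data known. Beside all 10 genes, the text names called genes of the promoter, upstream, processing, turnover and costimulation lists (up to 4 by p), called neighbours (up to 6), genes listed by symbol and the 5 genes most like the chains. Single marker genes outside this rule were named after their values were seen. Some genes of these lists are not reported here.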

Additional observations from a re-analysis of the deposited data

Results flagged for a closer look

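H2-Ob was singled out because its IL-1β effect differed between the durations. The difference of the 20-day and 1-day effects was 1.79 on the log2 scale (edgeR quasi-likelihood test, adjusted p = 0.00173), with 0.91 at 20 days and -0.88 at 1 day. All 4 IL-1β libraries lay above the PBS libraries at 20 days, and all 3 lay below them at 1 day. The direction was the same in both naming sets of each duration (0.80 in E061316 and 1.02 in the untagged set, -0.74 in 10k and -0.95 in E060216). Durations and naming sets cannot be told apart. Of 20 groups of 4 libraries examined for a library far from the others (10 genes, IL-1β and PBS at 20 days), none had one by Dixon's test, which chance would give in about 1 of 20.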

How the results depend on the processing

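At 20 days Cd74, H2-Aa, H2-Eb1, H2-Ab1 and H2-Ob kept their direction and call under all alternatives, and 4 of the 10 genes were called lower under each. The count called higher was 1 with no naming set term and 1 to 2 over leave-out fits. Genes called in all were 1815 with DESeq2, 525 with no naming set term, 750 with only the 20-day libraries and 648 to 1156 over leave-out fits. At 1 day these were 1406, 290, 1200 and 228 to 1244, and 5 of the 10 genes were called lower by DESeq2, 5 with only the 1-day libraries and 2 to 5 over leave-out fits. For the difference of effects they were 1181, 23 with no naming set term and 34 to 604, with 3 of the 10 genes called higher by DESeq2 and 1 to 2 over leave-out fits. PBS groups had 9 calls with DESeq2 and 0 in every leave-out fit. The libraries whose removal moved a count by over 1.5 times were, at 20 days, IL-1β 20-day replicates 1 (705), 3 (763) and 4 (648), and at 1 day IL-1β 1-day replicates 1 (228) and 2 (329), PBS 1-day replicates 1 (331) and 2 (239) and PBS 20-day replicate 4 (1244). For the difference they were IL-1β 1-day replicates 1 (34) and 2 (40), PBS 1-day replicates 1 (78) and 2 (38), IL-1β 20-day replicates 1 (122), 2 (604), 3 (135) and 4 (95) and PBS 20-day replicate 3 (134). The cause was not tested.

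Pairing by replicate number was examined: same-numbered deviations correlated at -0.0488 in E060216, 0.149 in E061316 and 0.00638 in the untagged set. Each r rests on 2 libraries per arm, too few to decide on pairing. The 10k set, with 1 library per arm, could not be examined. With a replicate block 672 genes were called at 20 days, 383 at 1 day and 23 for the difference, and the block changed no call of the 10 genes. It ended those of Ifngr2, Cd48, Icosl, Tnfsf4, C1qb and Prtn3 at 20 days and of Cd86, Ctsl, H2-K2, Phf1 and Tap2 at 1 day. No called value reversed. Uncalled ones did in some leave-out fits: over these fits the difference of effects ran between -0.33 and 0.053 for H2-Aa and between -0.28 and 0.36 for Ciita, and the change between PBS groups ran between -0.039 and 0.29 for H2-DMa and between -0.021 and 0.22 for H2-DMb1. Ciita, with 50 to 183 reads, and H2-DMb2, with 21 to 119 reads per library, had the fewest reads of the 10 genes. The effect of depth on their estimates was not tested.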
